A study of Mus musculus with 6 samples.

Results

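Ligand-gated ion channels open when a transmitter binds them, and each channel is built from several subunits that separate genes encode. The genes described here are the 67 subunit genes, of 23284 genes in the files, that were chosen by symbol: the GABA-A, glycine and nicotinic acetylcholine receptor subunits, the serotonin-gated channel subunits, the ionotropic glutamate receptor subunits (AMPA, kainate, NMDA and delta classes) and the ATP-gated P2X subunits. Islets of 12-week-old mice were compared by bulk RNA-seq. Knockout islets came from Neurod1-floxed/floxed mice with Rip-Cre+, in which a rat insulin promoter drives Cre recombinase in beta cells, and control islets from Neurod1-floxed/floxed mice without Cre. Both groups carried the floxed alleles, and the labels name the strain as C56BL/J for both. Because controls lacked Cre, an effect of the Cre transgene and an effect of losing Neurod1 cannot be told apart. There were 3 knockout libraries (replicates 4, 5, 6) and 3 control libraries (replicates 7, 10, 16). As the labels name no animals, the spread behind each p-value is that between libraries, which may be technical.

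GABA and glycine open chloride channels, while glutamate, acetylcholine, serotonin and ATP open cation channels. Islet beta cells make GABA, package serotonin and ATP with insulin, and receive acetylcholine from parasympathetic nerve endings, so several of these channels are known from islet physiology. Neurod1 is a basic helix-loop-helix factor of endocrine cells and neurons that pairs with E proteins and binds the E-box, a short motif with the letters CANNTG.

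Libraries held 12206393 to 20412435 counts. Neurod1 counts were 389 to 463 in the knockout and 2049 to 3839 in the control (log2 fold change -2.53, SE 0.13, adjusted p = 1.74e-05). All 10 beta cell markers were found, and their summed level was 132416 to 149044 counts per 1e+06 counts (CPM) in knockout and 174707 to 192972 CPM in control libraries, with 3 higher and 3 lower. In this sum Ins1 went from 48668 ± 3300 CPM in control to 4307 ± 1529 CPM in knockout libraries. Ins2 was at 111006 ± 5361 and 113090 ± 7417 CPM and did not pass. Pdx1, Nkx6-1 and Slc2a2 were higher, and G6pc2 and Slc30a8 were lower with Ins1. Markers of other cells moved with the groups. Acinar markers took 0.472% to 1.38% of counts in the knockout and 1.33% to 4.66% in the control, with 2 of 16 lower past the threshold by edgeR, and 13 lower and 1 higher by DESeq2. Of 10 endothelial markers 9 fell, of 10 stellate cell markers 3 fell, and of 9 tested neuron markers 6 fell and 2 rose. Among tested markers of alpha cells 1 of 7 fell, of delta cells 1 of 4 rose and 1 fell, of PP and epsilon cells 0 of 2 passed (edgeR, with 0 at an unadjusted p under 0.05 and 0 by DESeq2), and of duct cells 1 of 7 rose and 3 fell. Schwann cell markers included 2 of 8 that rose, macrophage markers 1 of 8 that fell, and lymphocyte markers 0 of 8 that passed (edgeR, with 0 at an unadjusted p under 0.05 and 0 by DESeq2), although their summed level was 19.3 to 108 CPM in control and 98.9 to 332 CPM in knockout libraries. An alternative fit given below took in the acinar marker level. No fit took in the other marker lists, and their part in the results below was not tested. No list had a marker at 0 in all libraries. In bulk islets, fewer cells of a type and less RNA per cell cannot be told apart.

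Of the 67 subunit genes, 34 had enough counts to be tested, of which 5 rose and 7 fell past the adjusted p threshold of 0.05 when knockout was compared with control. The shares were 14.7% higher and 20.6% lower, where 11.8% and 12.6% of all 14770 genes tested were called in the same directions. In 6 tested members (17.6%) all knockout libraries lay above all control libraries, and in 13 (38.2%) all lay below, beside 20.0% and 22.0% of all genes tested. The median log2 fold change of the 34 was -0.23, and that of all genes tested was -0.0075. The members that rose included Grid1, Grik4, Chrnb4 and Gria3, and those that fell were Grin2c, Chrna7, Htr3a, Gabra4, Gabrg1, Chrna3 and Glrb. The number that fell was 2 without knockout library 4, 3 without knockout library 6, 2 without control library 10 and 4 without control library 16, and the number that rose was 3 without control library 10. When the fit took in the acinar marker level, Grid1 (3.25, adjusted p = 0.00375) and Gria3 (0.71, adjusted p = 0.029) rose, Grin2c fell (-1.84, adjusted p = 0.0123), and the GABA-A pi subunit gene Gabrp also passed (-3.42, adjusted p = 0.0488). The other 9 missed the threshold in that fit with the same sign as before. For most of those named the log2 fold change stayed about as large, as for Chrnb4 (1.01, adjusted p = 0.113), Grik4 (1.66, adjusted p = 0.0747), Chrna7 (-1.50, adjusted p = 0.0692), Chrna3 (-0.71, adjusted p = 0.18) and Htr3a (-1.25, adjusted p = 0.197), while that of Gabra4 went from -1.07 to -0.49 (adjusted p = 0.478). Per the authors' deposited table, members higher in the knockout numbered 3 and members lower numbered 4 at an adjusted p under 0.05, all 7 of them among these 12.

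**Figure D1:**
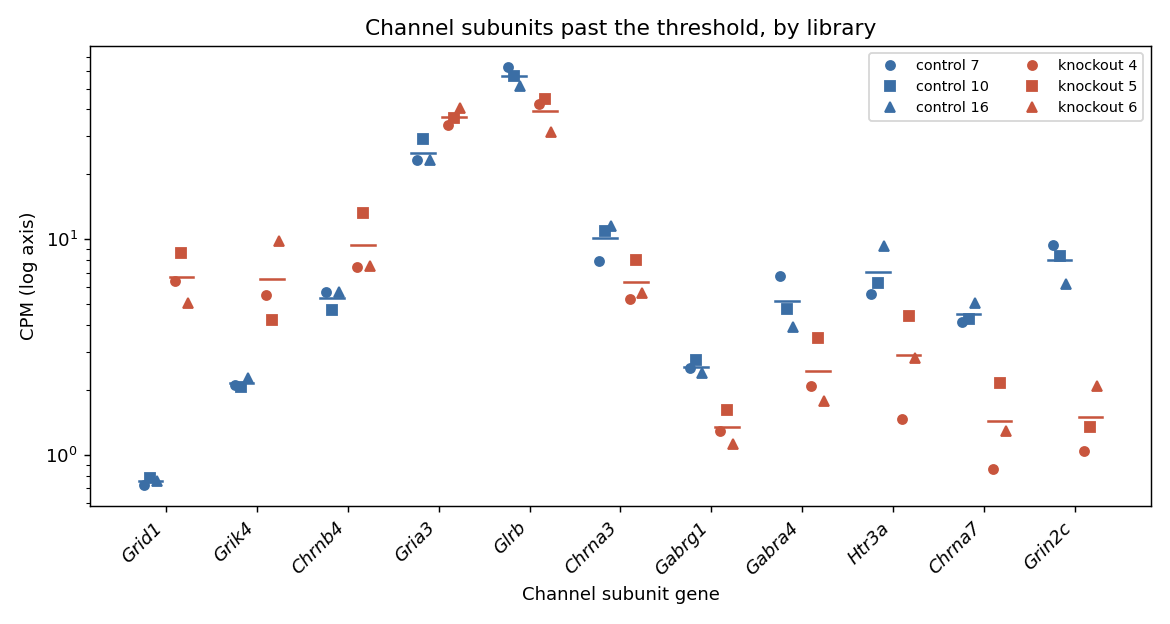
CPM on a log axis of 11 subunit genes past the threshold, ordered by log2 fold change, in the 3 control (blue) and 3 knockout (red) libraries, with points for libraries and short lines for group means. For Chrna3, knockout library 5 (8.04 CPM) lay above control library 7 (7.95 CPM), and for the other 10 genes plotted the groups did not overlap.

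Log2 fold changes ranged more widely among members with low levels than among those with high levels. There were 8 with a mean of at least 20 CPM, among them Grik5, Gria2, Gria3, Grin1, Glrb, Chrnb2 and P2rx4, and together the 8 held 83.1% to 84.6% of all subunit CPM in control and 85.2% to 87.2% in knockout libraries. Their log2 fold changes ran from -0.53 (Glrb) to 0.55 (Gria3), with a median of 0.0012. Among the 26 other tested members the range was -2.44 (Grin2c) to 3.14 (Grid1), the median was -0.57, and 21 had a negative value. The SE was 0.17 to 0.78 in these 26 and 0.07 to 0.14 in the 8, so low members were measured less precisely. The ranges were not compared by a test. The sum over all 67 genes was 555 to 582 CPM in control and 532 to 568 CPM in knockout libraries. Levels of different genes were compared per kb of exon length. In control islets the order among these 7 was Grik5 (22.0 ± 1.82 CPM per kb, SD, n = 3), Glrb (17.9 ± 1.85), P2rx4 (13.3 ± 0.0723), Grin1 (10.5 ± 0.475), Chrnb2 (9.06 ± 0.778), Gria2 (8.69 ± 1.17) and Gria3 (4.64 ± 0.605). Libraries overlapped between Chrnb2 and Gria2, so these neighbours did not differ beyond their spread. In the knockout Grik5 again came before the rest (19.2 ± 1.26 CPM per kb), Glrb (12.4 ± 2.21) overlapped with Grin1 (11.8 ± 0.488), and Grin1 overlapped with P2rx4 (11.6 ± 0.336). Chrnb2 shares 1014 bp of exon with Adar on the opposite strand, and whether counting used the strand is not stated, so its level may hold reads of Adar.

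**Figure D2:**
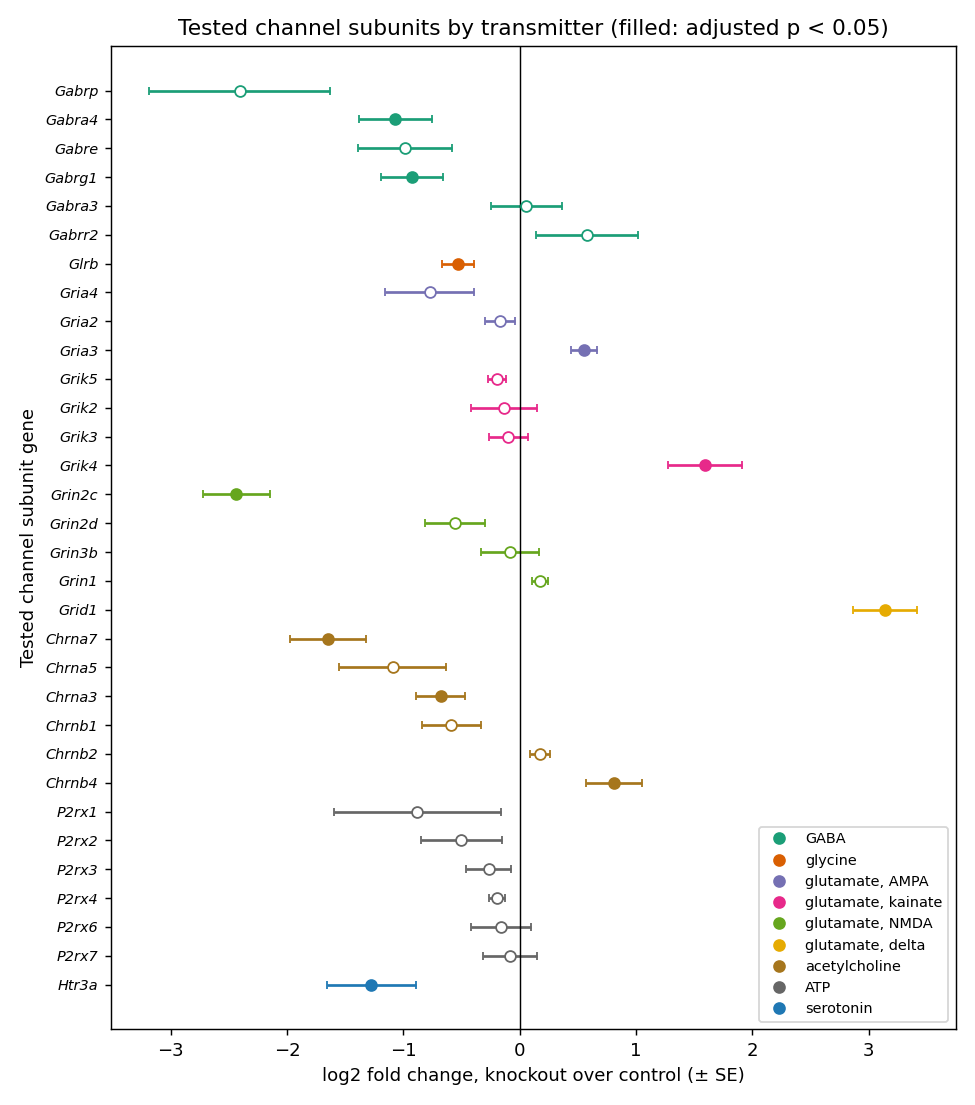
Log2 fold change (knockout over control, ± SE) of 32 tested subunit genes, grouped by transmitter and class, with filled points for adjusted p under 0.05. Values ran from -2.44 for Grin2c to 3.14 for Grid1, and none of the 6 P2X genes was filled.

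Promoter sequences of 8 of the 12 members past the threshold were at hand from RefSeq (GRCm38.p6). The 250 bases before the annotated start, 5′ to 3′ on the gene's strand, are shown for the members past the threshold with the largest falls by edgeR, Grin2c (chr11:115267244-115267493, minus strand) and Chrna7 (chr7:63212527-63212776, minus strand), and for Gabrg1 (chr5:70842618-70842867, minus strand) and Gabra4 (chr5:71658309-71658558, minus strand), GABA-A genes of 1 chromosome that both fell. Capitals mark matches to the E-box CANNTG, which reads the same on both strands.
Grin2c: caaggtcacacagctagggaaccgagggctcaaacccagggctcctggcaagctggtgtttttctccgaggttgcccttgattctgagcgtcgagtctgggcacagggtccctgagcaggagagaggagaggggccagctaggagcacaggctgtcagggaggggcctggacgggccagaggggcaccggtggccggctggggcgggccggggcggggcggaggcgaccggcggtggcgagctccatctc
Chrna7: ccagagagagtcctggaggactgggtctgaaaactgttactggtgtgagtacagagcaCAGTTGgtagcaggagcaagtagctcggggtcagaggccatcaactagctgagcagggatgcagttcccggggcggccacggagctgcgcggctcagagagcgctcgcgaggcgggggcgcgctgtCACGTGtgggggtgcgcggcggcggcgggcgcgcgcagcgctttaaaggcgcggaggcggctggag
Gabrg1: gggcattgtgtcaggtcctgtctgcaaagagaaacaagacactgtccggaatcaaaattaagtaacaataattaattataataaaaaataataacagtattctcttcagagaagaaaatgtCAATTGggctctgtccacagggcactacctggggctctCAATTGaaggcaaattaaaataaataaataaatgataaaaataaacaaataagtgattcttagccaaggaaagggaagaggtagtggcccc
Gabra4: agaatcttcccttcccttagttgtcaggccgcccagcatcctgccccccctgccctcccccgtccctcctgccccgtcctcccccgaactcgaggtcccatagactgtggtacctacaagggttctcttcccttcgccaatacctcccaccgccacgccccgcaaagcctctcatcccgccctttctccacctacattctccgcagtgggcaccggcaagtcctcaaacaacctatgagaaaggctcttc
Chrna7 held CAGTTG and CACGTG, Gabrg1 held CAATTG 2 times, and Grin2c and Gabra4 held none in these windows. CANNTG occurred in 66.2% of all 32851 promoter windows of this length and in 34 of 52 windows of the members. CAGATG, searched on both strands (CATCTG on the other) and a special case of CANNTG, occurred in 14.4% of all windows and in 5 of the 52, none of them among the 4 shown.

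Among members past the threshold by edgeR, the glutamate receptor subunit genes Grid1 and Grin2c had the largest rise and the largest fall. By DESeq2, Gabrp fell slightly more (-2.45, adjusted p = 0.014) than Grin2c (-2.43). Of 18 genes 12 were tested, 3 rose and 1 fell. The class sum did not part the groups, at 260 to 283 CPM in control and 258 to 291 CPM in knockout libraries.

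Grid1 encodes a delta subunit, an orphan member of the family that binds cerebellins at synapses. Its counts were 14, 16 and 11 in the control (replicates 7, 10, 16) and 104, 129 and 63 in the knockout (replicates 4, 5, 6), the order kept for all values given by library. Every knockout library lay far above the controls, at 5.06 to 8.64 CPM against 0.723 to 0.785 CPM. The rise was 8.82-fold (log2 fold change 3.14, SE 0.28, adjusted p = 0.000132). Grid1 ranked number 35 of the 67 genes per kb in control and number 14 in knockout islets. Cbln1, a cerebellin that binds delta receptors, had too few counts for the edgeR filter, with 0.0802 ± 0.0715 CPM in control and 0.675 ± 0.125 CPM in knockout (SD, n = 3 each), and its groups did not overlap. DESeq2, which kept it, gave a log2 fold change of 3.16 (adjusted p = 0.021). The other cerebellin genes listed did not go with it. Cbln2 was not tested by edgeR, and its groups overlapped (DESeq2 adjusted p = 0.792). Cbln4 was tested and did not pass (0.56, adjusted p = 0.383).

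Grin2c, an NMDA receptor subunit that sets channel kinetics and magnesium block, gave 182, 170 and 90 counts in the controls but 17, 20 and 26 in the knockouts. The groups were apart, at 6.18 to 9.40 CPM and 1.04 to 2.09 CPM. Grin2c fell 5.42-fold (-2.44, SE 0.29, adjusted p = 0.000644). Grin1, the subunit that every NMDA receptor needs, was at 47.8, 46.2 and 43.7 CPM in control and 52.3, 53.5 and 49.3 CPM in knockout libraries, which did not overlap. Its log2 fold change of 0.17 (SE 0.07) did not pass (adjusted p = 0.106). Within the NMDA class, on a per kb scale, Grin2c made up 11.6 ± 1.74% in control and 2.21 ± 0.832% in knockout, and Grin1 77.3 ± 1.22% and 87.9 ± 2.86% (SD, n = 3 each). Grin2d (-0.55, adjusted p = 0.154) and the glycine-binding subunit gene Grin3b (-0.09, adjusted p = 0.834) did not pass. Grin2a and Grin2b, the main partners of Grin1 in forebrain, had at most 2 counts in any library.

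Gria3, an AMPA receptor subunit, was at 23.3, 29.0 and 23.3 CPM in control libraries and at 33.8, 36.7 and 40.7 CPM in knockout libraries. All knockout libraries were higher, and the rise was 1.46-fold (0.55, SE 0.11, adjusted p = 0.00902). Gria2, whose edited form makes AMPA receptors poorly permeable to calcium, overlapped between groups (-0.17, SE 0.13, adjusted p = 0.374). It was at 79.4 to 104 CPM in control and 71.3 to 93.9 CPM in knockout libraries. Gria2 exceeded Gria3 per kb in every library, though closely in knockout library 5 (6.80 and 6.74 CPM per kb). Per kb, Gria2 made up 64.2 ± 4.37% of AMPA subunit transcripts in control and 52.8 ± 2.56% in knockout, and Gria3 34.4 ± 4.04% and 46.5 ± 2.47% (SD, n = 3 each). Gria4 (-0.78, adjusted p = 0.177) did not pass, and Gria1 had at most 6 counts in a library.

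Kainate subunits were dominated by Grik5, a high-affinity subunit that needs a partner to form channels. Grik5 was at 81.3, 76.9 and 90.4 CPM in control and 68.8, 70.5 and 77.8 CPM in knockout libraries, which overlapped (-0.20, SE 0.08, adjusted p = 0.115). Its close relative Grik4 was at 2.12, 2.06 and 2.26 CPM in control libraries and at 5.53, 4.22 and 9.80 CPM in knockout libraries. The controls lay close together and every knockout library was higher, with the highest value in library 6. Grik4 rose 3.02-fold (1.59, SE 0.32, adjusted p = 0.00776). The partner subunits Grik2 (-0.13) and Grik3 (-0.10) did not pass, and Grik1 had at most 4 counts in a library. Grik5 made up 95.2 ± 0.415% of the class per kb in control and 91.6 ± 1.63% in knockout, and Grik4 1.56 ± 0.0451% and 5.11 ± 1.86% (SD, n = 3 each).

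**Figure D3:**
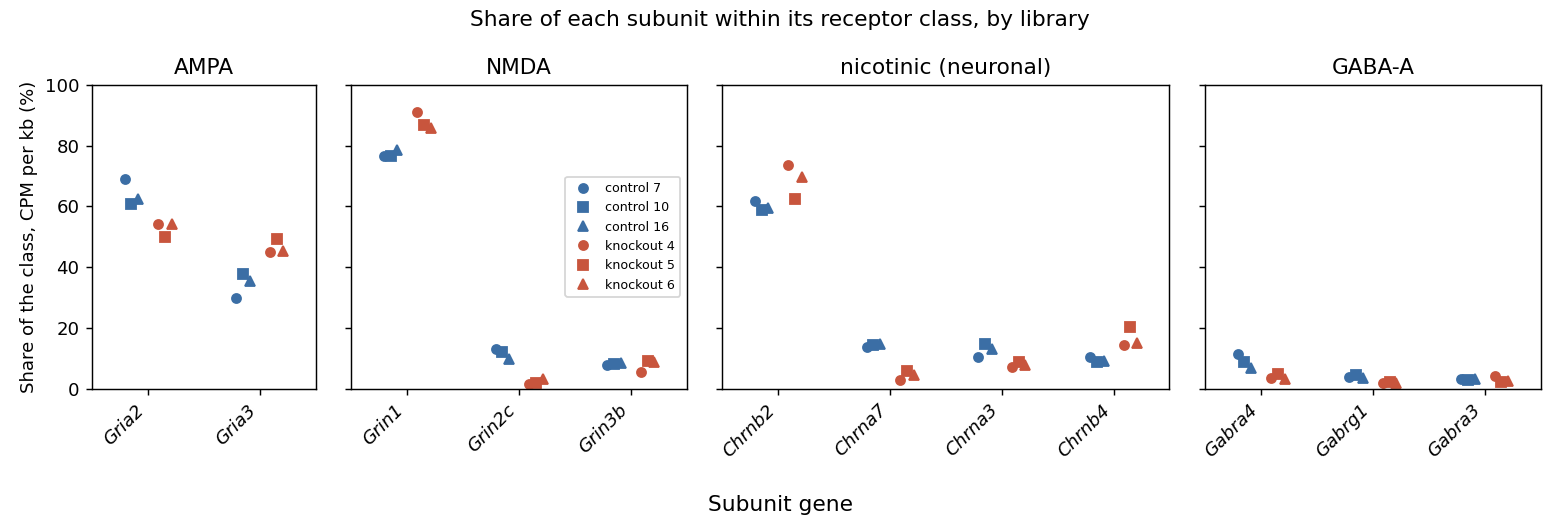
Share of each subunit (%) within its receptor class, from CPM per kb of exon, in the 3 control (blue) and 3 knockout (red) libraries. Gria3, Grin1, Chrnb2 and Chrnb4 took larger shares in every knockout library than in any control library. Gria2, Grin2c, Chrna7, Chrna3 and, of all GABA-A transcripts, Gabra4 and Gabrg1 took smaller ones.

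Acetylcholine receptor subunits changed in both directions. Of 16 genes 6 were tested, with 1 higher and 2 lower. Chrna7, which forms receptors of its own kind with high calcium permeability, gave counts of 80, 87 and 74 in control but 14, 32 and 16 in knockout islets. In CPM the groups were apart, at 4.13 to 5.08 and 0.860 to 2.14. Chrna7 fell 3.13-fold (-1.65, SE 0.33, adjusted p = 0.00763).

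Chrna3 and Chrnb4 encode the alpha and beta subunits of the main receptor of autonomic ganglia. Chrnb4 was at 5.68, 4.71 and 5.69 CPM in control libraries and at 7.43, 13.2 and 7.55 CPM in knockout libraries, so that library 5 stood highest. Chrnb4 rose 1.76-fold (0.81, SE 0.24, adjusted p = 0.040). The call was lost without knockout library 5 (0.48, adjusted p = 0.107) and without control library 7, 10 or 16 (adjusted p = 0.0867, 0.132 and 0.0878), and with limma-voom (0.0589). Chrna3 was at 7.95, 10.9 and 11.5 CPM in control and 5.28, 8.04 and 5.62 CPM in knockout libraries, with overlap between knockout library 5 and control library 7. Chrna3 fell 1.60-fold (-0.68, SE 0.21, adjusted p = 0.0465), a call lost when knockout replicate 4 or 6, or control replicate 10 or 16, was left out (adjusted p = 0.142, 0.138, 0.14 and 0.135) and with limma-voom (0.0617), RLE scaling (0.0521) or no robust estimation (0.0531).

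The most abundant nicotinic gene, Chrnb2, the usual beta subunit of brain receptors, was at 69.7 to 82.5 CPM in control and 78.6 to 91.4 CPM in knockout libraries and did not pass (0.18, SE 0.09, adjusted p = 0.167). Chrna4, its usual partner in brain, had 4 to 12 counts per library and was not tested, and Chrna6 was at 0. The accessory subunit gene Chrna5 (-1.09, adjusted p = 0.115) and Chrnb1, a muscle-type subunit gene (-0.59, adjusted p = 0.128), did not pass. Among neuronal subunits per kb, Chrna7 made up 14.3 ± 0.492% in control and 4.47 ± 1.47% in knockout, and Chrnb4 9.54 ± 0.875% and 16.5 ± 3.26% (SD, n = 3 each). The total behind these shares includes Chrnb2, whose level may hold reads of Adar. The genes for acetylcholine release and removal were lower in the knockout: the vesicular transporter Slc18a3 (5.72 ± 0.353 to 2.34 ± 0.561 CPM, adjusted p = 0.00411), the choline transporter Slc5a7 (11.4 ± 0.894 to 4.95 ± 1.94 CPM, adjusted p = 0.0093), Ache (-0.74) and Bche (-1.21). Chat, the synthetic enzyme, was at -1.27 (adjusted p = 0.0672). These were named after their values were seen.

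Of the 9 tested neuron markers 6 fell and 2 rose past the threshold. The intermediate filament gene Prph was at 14.3 to 22.6 CPM in control and 5.96 to 9.65 CPM in knockout libraries, and Tubb3, a neuronal tubulin gene, at 38.0 ± 5.36 and 12.2 ± 3.64 CPM (SD, n = 3 each). Within the knockout, library 5 was highest for both markers and also for Chrna3, Chrna7 and Htr3a. This order was not particular to them. Library 5 was likewise the highest knockout library for Gabra4, Gabrg1 and Glrb, and for Chrnb4 and Grid1, which rose. For Grin2c, Gria3 and Grik4 library 6 was highest. All 10 markers had counts. The summed level of all 10 markers was higher in the knockout (500 to 548 against 340 to 386 CPM), and this sum includes Snap25 and Elavl4, which endocrine cells also express and which rose. Their part in the lower channel transcripts was not tested.

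Serotonin-gated channels are built from Htr3a, which can form channels alone, and Htr3b, which needs Htr3a. Htr3a was at 5.58, 6.28 and 9.26 CPM in control libraries and at 1.47, 4.42 and 2.81 CPM in knockout libraries. Groups did not overlap, and Htr3a fell 2.42-fold (-1.27, SE 0.38, adjusted p = 0.0446). Leaving out knockout replicate 4 or 6 or any 1 of the control replicates 7, 10 and 16 ended the call (adjusted p = 0.0676, 0.123, 0.0649, 0.0895 and 0.126), as did no filter (0.0501). Htr3b had 12, 40 and 29 counts in control and 3, 8 and 4 counts in knockout libraries, too few for the edgeR test, and the groups did not overlap. DESeq2 gave an adjusted p of 0.0204, and the authors' deposited table gives 0.0626.

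GABA-A receptor subunits, of which 8 of 19 genes were tested, held 1 member that rose and 2 that fell. The class sum was 71.6 to 78.4 CPM in control and 80.9 to 95.7 CPM in knockout libraries, which did not overlap. Gabra4, an alpha subunit of receptors outside synapses, was at 6.77, 4.76 and 3.91 CPM in control and 2.09, 3.48 and 1.77 CPM in knockout libraries, with no overlap. It fell by 1.07 on the log2 scale (SE 0.31, adjusted p = 0.0371). The Gabra4 call was lost on leaving out any 1 of knockout replicates 4 and 6 and control replicates 7 and 10 (adjusted p = 0.109, 0.109, 0.14 and 0.0802). Gabrg1, a gamma subunit, was at 2.53, 2.75 and 2.40 CPM in control and 1.29, 1.61 and 1.12 CPM in knockout libraries, also apart. It fell 1.90-fold (-0.93, SE 0.26, adjusted p = 0.0341). That call held without knockout library 5 alone (0.0424), but was lost when knockout replicate 4 or 6 or control replicate 7, 10 or 16 was dropped (adjusted p = 0.0858, 0.0923, 0.0935, 0.117 and 0.0656), with DESeq2 (0.0798) and with no filter (0.0529). The alpha subunit gene Gabra3 did not pass (0.06, adjusted p = 0.912). Gabrp, a subunit of epithelial tissues, was at 0.723, 1.42 and 3.50 CPM in control and 0.246, 0.670 and 0.0803 CPM in knockout libraries, which did not overlap but spread widely (-2.41, SE 0.78, adjusted p = 0.0581). It passed with DESeq2 (adjusted p = 0.014), without knockout library 5 (0.0491) and without control library 7 (0.0309). Gabre (-0.99) and the rho subunit gene Gabrr2 (0.58) did not pass. Within the gamma genes per kb, the share of Gabrg1 overlapped between groups (62.3% to 73.1% in control and 62.1% to 66.6% in knockout libraries). The alpha share shifted per kb: Gabra4 made up 65.8% to 75.1% of alpha transcripts in control and 44.3% to 64.9% in knockout libraries, and Gabra3 25.0 ± 4.55% and 41.0 ± 11.5%, where knockout library 5 (28.4%) lay within the control range of 21.1% to 30.0%.

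Glycine receptors are built from alpha subunits, which bind glycine, and the beta subunit Glrb, which anchors them to gephyrin and forms no channel alone. Glrb was at 63.0, 56.9 and 51.3 CPM in control libraries and at 42.2, 44.6 and 31.3 CPM in knockout libraries. All knockout libraries were lower, and Glrb fell 1.45-fold (-0.53, SE 0.14, adjusted p = 0.0248), but that was lost without knockout replicate 4, control replicate 7 or control replicate 10 (adjusted p = 0.0573, 0.0866 and 0.0732). None of the alpha genes could be tested. Glra4 had 3 to 6 and Glra1 0 to 8 counts per library, Glra3 had 1 count in all, and Glra2 was at 0.

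ATP-gated P2X genes had 0 calls among 6 tested (edgeR), with 1 at an unadjusted p under 0.05 and 0 by DESeq2. P2rx4, the most abundant, was at 36.0, 35.9 and 35.6 CPM in control and 30.2, 31.8 and 31.7 CPM in knockout libraries, which did not overlap (-0.20, SE 0.07, adjusted p = 0.0684), and passed with upper-quartile scaling (-0.23, adjusted p = 0.0409). The summed level of the class was 51.6 to 52.7 CPM in control and 43.8 to 45.9 CPM in knockout libraries. P2rx7, a channel of macrophages, was at 5.42 to 6.13 and 3.69 to 6.67 CPM (-0.09, adjusted p = 0.818). P2rx1, known from blood cells and smooth muscle, was at 0.184, 2.75 and 1.45 CPM in knockout and 1.65 to 3.31 CPM in control libraries, with a wide spread among the knockouts (-0.88, adjusted p = 0.42). P2rx2 (-0.50), P2rx3 (-0.27) and P2rx6 (-0.16) did not pass either, and all 6 values were negative.

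The 33 members that were not tested had few counts. They included 5 genes at 0 in every library (Chrna6, Chrnd, Gabra6, Gabrr3 and Glra2), and 0 counts allow a level of up to 0.147 to 0.241 CPM, taking 3 counts as the limit in a library and covering counting error only. The other 28 had from 1 count to the 96 of Htr3b over all libraries, the next highest being Chrna4 with 43. In 29 of the 33 no library reached 10 counts.

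Partner genes of the channels were drawn from a list of 92, of which 89 were in the files and 70 were tested. Of these 16 rose (22.9%) and 17 fell (24.3%), beside 11.8% and 12.6% of all genes tested. The number that fell was 11 without knockout library 4 or control library 10 and 10 without control library 16. Among scaffold and anchoring genes 5 of 23 rose and 6 fell. Gphn, which encodes the scaffold gephyrin of GABA-A and glycine receptors, rose 1.45-fold (41.1 ± 3.58 to 59.8 ± 3.93 CPM, SD, n = 3 each, 0.54, SE 0.09, adjusted p = 0.00288). Grip1, a scaffold of AMPA receptors, rose from 18.1 ± 0.704 to 29.3 ± 1.74 CPM (0.70, adjusted p = 0.000964), and Homer1 rose by 0.48, a call lost with the acinar covariate (adjusted p = 0.113), while the postsynaptic scaffold gene Shank3 fell from 44.1 ± 3.34 to 27.4 ± 3.17 CPM (-0.68, adjusted p = 0.00211).

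Of 19 tested auxiliary subunits, chaperones and extracellular partners 5 rose and 2 fell. Lypd6, a regulator of nicotinic receptors, had 8, 7 and 3 counts in control libraries and 44, 46 and 34 counts in knockout libraries, an 8.48-fold rise (3.08, SE 0.34, adjusted p = 0.000426). Lhfpl4, which assembles GABA-A receptors with neuroligin, rose 1.45-fold (85.4 ± 2.70 to 124 ± 11.4 CPM, adjusted p = 0.00181), and Clptm1, which holds GABA-A receptors inside the cell, rose 1.23-fold (0.29, adjusted p = 0.0133), a call lost without control library 10 (0.0564) and with the acinar covariate (0.0624). Nptx1, a pentraxin that clusters AMPA receptors, fell 1.69-fold (-0.76, SE 0.10, adjusted p = 0.00105).

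Genes of transmitter supply and removal had 5 rises and 7 falls among 24 tested. Gad2, a GABA-synthesizing enzyme gene, went from 0.721 ± 0.429 to 19.2 ± 4.61 CPM. Gad1, the other such gene, fell from 117 ± 26.8 to 30.1 ± 9.54 CPM (-1.96, adjusted p = 0.00739). Ddc, the decarboxylase of serotonin and dopamine synthesis, fell from 275 ± 6.23 to 72.3 ± 17.6 CPM (-1.92, adjusted p = 0.000188). Tph2, a further gene of serotonin synthesis, rose from 1.16 ± 0.879 to 13.4 ± 5.23 CPM (3.59, adjusted p = 0.00664). The glycine transporter Slc6a9 fell 3.05-fold, from 14.4 ± 4.08 to 4.75 ± 0.945 CPM (adjusted p = 0.0025), with a log2 fold change of -1.61, or -0.94 with the acinar covariate (adjusted p = 0.0223), and the monoamine oxidase Maob rose 2.56-fold (1.36, SE 0.14). Of the chloride cotransporters, Slc12a7 (135 ± 34.3 to 62.9 ± 7.91 CPM, adjusted p = 0.00976) and Slc12a5 (-0.35, adjusted p = 0.0448) fell. Both move chloride out of cells. Slc12a7 was at 171, 130 and 103 CPM in control libraries and missed the threshold with the acinar covariate (-0.73, adjusted p = 0.123). Slc12a2, which moves chloride in, was at -0.20 (adjusted p = 0.0853). The Slc12a5 call held in 4 of 14 alternatives. It ended on leaving out knockout replicate 4, knockout replicate 5 or control replicate 7, 10 or 16 (adjusted p = 0.136, 0.0939, 0.113, 0.118 and 0.0832), and with DESeq2 (0.0616), RLE scaling (0.052), no filter (0.0605), no robust estimation (0.0517) and the acinar covariate (0.424).

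**Figure D4:**
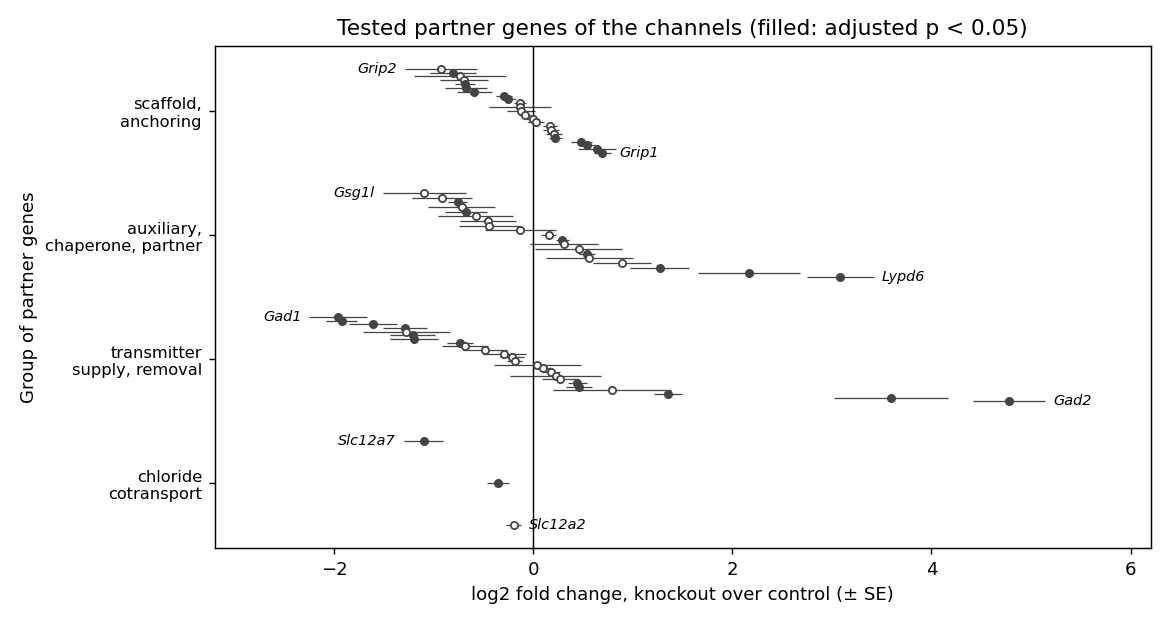
Log2 fold change (knockout over control, ± SE) of 69 tested partner genes in 4 groups, with filled points for adjusted p under 0.05 and the lowest and highest gene of each group named. Among the genes named in the plot, the highest values are Gad2 (4.78) and Lypd6 (3.08).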

How the data were processed

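Deposited files hold whole-number counts of 6 islet libraries. A further table by the authors holds their comparison: mean scaled counts of each group (a signal), p-values, the fold change as a ratio and the log2 fold change. The tools named, per the submitters' processing notes, are DESeq, Cufflinks 2.0.2, TopHat2 2.1.0 and bcl2fastq 1.8.4, with build mm9. Annotation, read counter and strand use are not stated. Members matched a pattern of symbols. The members and the lists of partner and marker genes were chosen with earlier results of these data known.

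The counts were fitted with edgeR 4.0.16 in R 4.3.3: filterByExpr (minimum count 10, total 15; 14770 of 23284 genes), TMM scaling, robust dispersions, quasi-likelihood F test, Benjamini-Hochberg adjustment over all genes tested, threshold 0.05. Adjusted p-values are from this fit unless another tool is named, and SE is the log2 fold change divided by the root of F. Groups came from sample titles. Replicate libraries were compared by chi-square and differed beyond sampling noise (16.9 to 44.2 per degree of freedom). Each was counted as 1 sample, but such a difference can be technical and does not show that libraries came from separate animals. Exon lengths are unions from GENCODE vM21 (GRCm38), not the authors' annotation, and served only for CPM per kb. Named genes were Neurod1, members past the threshold, the most abundant member of each class and up to 4 partner genes per group with the smallest p; other genes are named with their values as further members of a list. DESeq2 1.42.0, limma-voom (limma 3.58.1), other scalings and filters, an acinar covariate and leaving out each library were alternatives. The tests were checked on simulated data. Some genes that the rule selects are left out of the text and plots; counts over lists include them.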

Additional observations from a re-analysis of the deposited data

How the results depend on the processing

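Of the 12 members past the threshold, Grid1, Grin2c and Gria3 passed in each of 14 alternatives, and Chrna7 and Grik4 in 13, missing it with the acinar marker covariate (adjusted p = 0.0692 and 0.0747). With that covariate 2 members rose and 2 fell, and 7 partner genes rose and 10 fell. Leaving out each library gave 3 to 5 members higher and 2 to 9 lower, and 12 to 15 partner genes higher and 10 to 13 lower. The other tools, scalings and filters gave 4 to 5 members higher and 6 to 8 lower, and 15 to 19 partner genes higher and 13 to 18 lower. The most abundant AMPA gene, Gria2, changed sign with the acinar covariate (0.042, adjusted p = 0.907). The cause was not tested. No other gene named by the rule changed sign in these alternatives. Summed CPM of each class without TMM factors moved by less than 1 SD between replicates. No paired analysis was possible because the groups share no replicate number. Members with a few CPM rest on few counts per library, which limits their precision.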

Other observations

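Many subunit genes lie beside each other. In the gene order of RefSeq (GRCm38.p6), 31 of the 67 members fall into 19 pairs with at most 1 protein-coding gene between them, and in 5 pairs both genes were tested. On chromosome 9, Chrna5, Chrna3 and Chrnb4 are direct neighbours, with log2 fold changes of -1.09, -0.68 and 0.81, so the last had the opposite sign. Gria2 (-0.17) lies beside Glrb (-0.53) on chromosome 3, and P2rx7 (-0.09) beside P2rx4 (-0.20) on chromosome 5. Gabre (-0.99) and Gabra3 (0.06) on the X chromosome are parted by 1 gene. Htr3a (-1.27) is next to Htr3b, which was not tested and whose knockout libraries all lay below the controls. On chromosome 5, Gabrg1 and Gabra4, which both fell, lie in 1 cluster with Gabra2 and Gabrb1, which had 1 and 8 counts over all libraries. No test of shared change between neighbours was made.

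Muscle-type nicotinic subunits were close to absent beside Chrnb1 (3.93 to 5.39 CPM in control libraries). Chrna1 had 1 to 8 counts per library and Chrne 2 to 10, Chrng had 2 counts in all, and Chrnd was at 0.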
